A study of Mus musculus with 26 samples.

Results

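Induced pluripotent stem cells (iPSC) made from germline stem cells (GSC, the self-renewing spermatogonial stem cells of the testis in culture) were compared with iPSC made from fibroblasts. The germline-derived side consisted of the 4 clones titled iPSC[GSCneonatal]#1, iPSC[GSCneonatal]#2, iPSC[GSCadult]#1 and iPSC[GSCadult]#2, with 2 arrays each, and is called iPSC[GSC] below. Its neonatal clones came from GSC of day 10 and its adult clones from GSC of day 40. The fibroblast-derived side was a single line on 2 arrays, iPSC[MEF], made with a system labelled Tet-4F from mouse embryonic fibroblasts (MEF). The labels name no reprogramming system for iPSC[GSC]. Members were taken by title, with earlier results of these data known, and came to 10 of the 26 arrays and 5 of the 13 lines of the series. All lines, controls included, carry the strain label OG2, a mouse with a green fluorescent reporter of Oct4. The other lines were 4 gPSC clones, a germline-derived pluripotent type, embryonic stem cells (OG2 ESC), 1 neonatal and 1 adult GSC line, and MEF. Both arrays of each line are labelled as biological replicates, but no separate cultures are named, so their spread may be technical. A group of a single line has no spread between lines of its own.

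Reprogramming replaces the transcription programme of a differentiated cell by that of a pluripotent cell, and RNA of the source cell or marks it carried can persist for a time. Imprinted genes are expressed from only the maternal or the paternal copy, by methylation set in the parental germ line, and male germ cells carry the paternal pattern. Mouse pluripotent cells range from a naive state, which resembles the inner cell mass and expresses Zfp42 and Klf4, to a primed state, which resembles the later epiblast and expresses Fgf5 and Dnmt3b.

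Of the genes given as markers of this comparison, Grb10 encodes an adaptor that restrains insulin and growth-factor receptors and is imprinted, with the maternal copy active in most tissues. Fgf5 is a fibroblast growth factor of the epiblast, Dnmt3b is a de novo DNA methyltransferase, and Clca3b belongs to the calcium-activated chloride channel regulators. The 250 bases before each listed start of these genes are printed for reference, with CG marked as the usual site of DNA methylation. No expression result below uses these sequences, and whether either Grb10 window carries the imprint was not tested. They are RefSeq sequences on GRCm38.p6, 5′ to 3′ on the gene's strand, with every CG in capitals. The windows are chr11:12037421-12037670 (minus strand) and chr11:12027972-12028221 (minus strand) for Grb10, which has 2 listed starts, chr5:98253934-98254183 (plus strand) for Fgf5, chr2:153649199-153649448 (plus strand) for Dnmt3b and chr3:144849303-144849552 (minus strand) for Clca3b.
Grb10 (upstream start): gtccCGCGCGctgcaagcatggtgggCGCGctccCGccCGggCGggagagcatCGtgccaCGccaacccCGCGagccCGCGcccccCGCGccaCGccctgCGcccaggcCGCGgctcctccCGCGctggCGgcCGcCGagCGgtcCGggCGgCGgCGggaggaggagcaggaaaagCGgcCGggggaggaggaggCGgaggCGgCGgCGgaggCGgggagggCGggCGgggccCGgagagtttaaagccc
Grb10 (downstream start): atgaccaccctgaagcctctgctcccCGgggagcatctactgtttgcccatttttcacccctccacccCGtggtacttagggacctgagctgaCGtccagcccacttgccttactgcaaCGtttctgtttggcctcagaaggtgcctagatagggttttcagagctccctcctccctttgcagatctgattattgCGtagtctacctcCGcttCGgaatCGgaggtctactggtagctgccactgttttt
Fgf5: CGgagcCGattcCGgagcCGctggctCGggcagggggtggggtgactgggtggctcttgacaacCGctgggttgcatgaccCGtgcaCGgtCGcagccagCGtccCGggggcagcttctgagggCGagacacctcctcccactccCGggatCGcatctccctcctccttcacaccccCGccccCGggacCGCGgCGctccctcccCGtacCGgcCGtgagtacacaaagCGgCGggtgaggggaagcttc
Dnmt3b: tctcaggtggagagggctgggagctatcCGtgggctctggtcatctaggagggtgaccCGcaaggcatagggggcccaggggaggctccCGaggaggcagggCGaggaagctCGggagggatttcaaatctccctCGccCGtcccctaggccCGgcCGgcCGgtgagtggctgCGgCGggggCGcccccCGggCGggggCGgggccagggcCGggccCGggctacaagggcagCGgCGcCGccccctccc
Clca3b: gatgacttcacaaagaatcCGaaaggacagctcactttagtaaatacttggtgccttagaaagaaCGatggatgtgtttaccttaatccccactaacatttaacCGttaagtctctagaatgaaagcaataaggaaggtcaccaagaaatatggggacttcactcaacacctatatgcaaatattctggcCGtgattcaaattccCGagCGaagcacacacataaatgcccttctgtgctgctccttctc
The upstream Grb10 window holds 40 CG and the downstream window 8, against a median of 6 over the 32851 promoter windows of this table. Fgf5 has 24, Dnmt3b 21 and Clca3b 6. The letters TATAAA, searched on both strands, occur in none of these windows and in 12.4% of all windows. The octamer ATGCAAAT, a site of POU factors such as Oct4, occurs on either strand in 1.60% of all windows and, among those printed, in that of Clca3b. The arrays measured RNA only, so a CG count describes the sequence and not its methylation.

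Levels below are background-corrected, quantile-normalised log2 signals. A gene was detected on an array at a detection p under 0.01. The 8 iPSC[GSC] arrays detected 11357 to 12020 probes with a background median of 79.4 to 83.2, and the iPSC[MEF] arrays 10786 and 11524 with 89.4 and 83.8. All 8 pluripotency markers were detected on both arrays of every iPSC[GSC] clone. In iPSC[MEF] 7 were, the exception being the probe of Tdgf1 described below. Fibroblast markers (10 of 11 measured) had a mean level of 4.89 to 6.44 in the clones, 6.90 in iPSC[MEF] and 8.82 in MEF. They were detected on both arrays for 2 of 10 in iPSC[GSCneonatal]#1, 7 or 8 in the other clones and 8 in iPSC[MEF], where Pdgfrb was not detected.

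The line nearest to iPSC[MEF] was a germline-derived one. The gPSC clone titled gPSC[GSCneonatal]#2 correlated with it at 0.9973 over 9840 genes, and 11 genes lay at least 2-fold apart, whereas the arrays of each of these lines differed by that much at 10 and 5 genes. The 11 included 3 maternally expressed imprinted genes, all lower in the gPSC clone, which were Grb10 (7.55 against 8.78), Phlda2 (8.46 against 9.58) and the cell-cycle inhibitor Cdkn1c (6.70 against 7.82). Hal, Msmo1, Zfp869, Zfp930 and Rhox9 were lower as well, and Usp44, Erdr1 and the Y-linked Eif2s3y were higher, with Eif2s3y at 7.24 in the gPSC clone and at background in iPSC[MEF] (4.30). The fibroblast origin of iPSC[MEF] is known here from its label only, and no value in these data checks it. If that label were wrong, the differences below would not compare germline with fibroblast origin, so they are differences from the line labelled iPSC[MEF]. Because of this nearness the gPSC lines did not enter the main test, whose spread came from the iPSC[GSC] clones.

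Among the iPSC[GSC] clones, distance from iPSC[MEF] varied widely. iPSC[GSCadult]#1 lay at least 2-fold from it at 116 genes (r = 0.989), iPSC[GSCneonatal]#2 at 611 (r = 0.967), iPSC[GSCadult]#2 at 658 (r = 0.964) and iPSC[GSCneonatal]#1 at 1475 (r = 0.929). Clones of germline origin differed from each other at 149 to 1178 genes. The nearest line to iPSC[GSCadult]#1 among the iPSC was thus iPSC[MEF], since its sister clone iPSC[GSCadult]#2 stood 233 genes away. OG2 ESC differed from iPSC[MEF] at 539 genes.

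**Figure D1:**
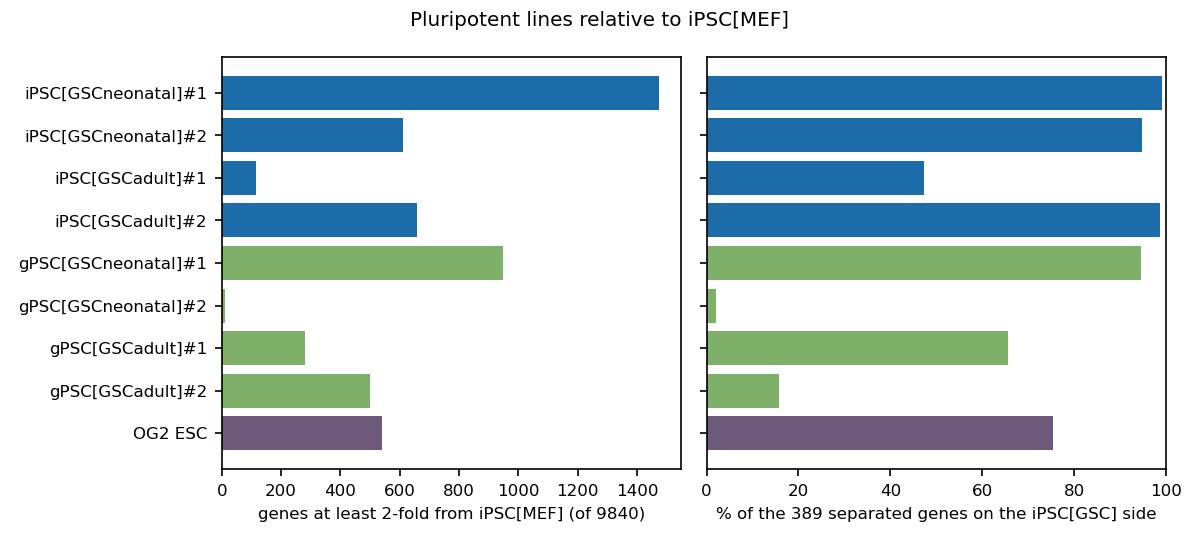
Left, number of genes (of 9840) at least 2-fold from iPSC[MEF] in each pluripotent line. Right, share of the 389 genes that separated iPSC[GSC] from iPSC[MEF] at which the line lay on the iPSC[GSC] side of the midpoint. gPSC[GSCneonatal]#2 shows 11 genes and 2.06%, and iPSC[GSCadult]#1 shows 116 genes and 47.3%. The bars of the 4 iPSC[GSC] clones (blue) describe the lines that defined the 389 genes.

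With the line as the unit, no gene passed the test between iPSC[GSC] and iPSC[MEF]. Tested by limma on the 5 line means with Benjamini-Hochberg adjustment, 0 of 9840 genes were called (0%), 575 had an unadjusted p under 0.05 (5.84%), and the smallest adjusted p was 0.151. The single iPSC[MEF] line was assumed to vary like the 4 clones. A limma fit to all 26 arrays with the line as a random block called 9 genes higher in iPSC[GSC] (0.0915%) and 3 lower (0.0305%). The higher ones were Tdgf1, Eif2s3y, Erdr1, Tma7, Fgfr1op2, Cep19, Gprc5a, Apoa2 and Epm2aip1, and the lower ones Grb10, Clca3b and Ip6k2. That fit includes the gPSC lines, and it averages neonatal and adult iPSC[GSC] clones as separate groups. It enters the 2 arrays of each line as correlated observations, with a consensus correlation of 0.812 shared by all genes. iPSC[MEF] is still a single line in it. Its p-values therefore rest partly on arrays of the same line and do not measure the spread between fibroblast-derived lines. As a description without a test, 153 genes were at least 2-fold higher in iPSC[GSC] with all 8 arrays above both iPSC[MEF] arrays (1.55%), and 236 were lower in the same sense (2.4%). These 389 genes (3.95%) are called separated below. Without iPSC[GSCadult]#1 there were 330 higher (3.35%) and 392 lower (3.98%). Without iPSC[GSCneonatal]#1 the shares were 1.12% and 1.8%.

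**Figure D2:**
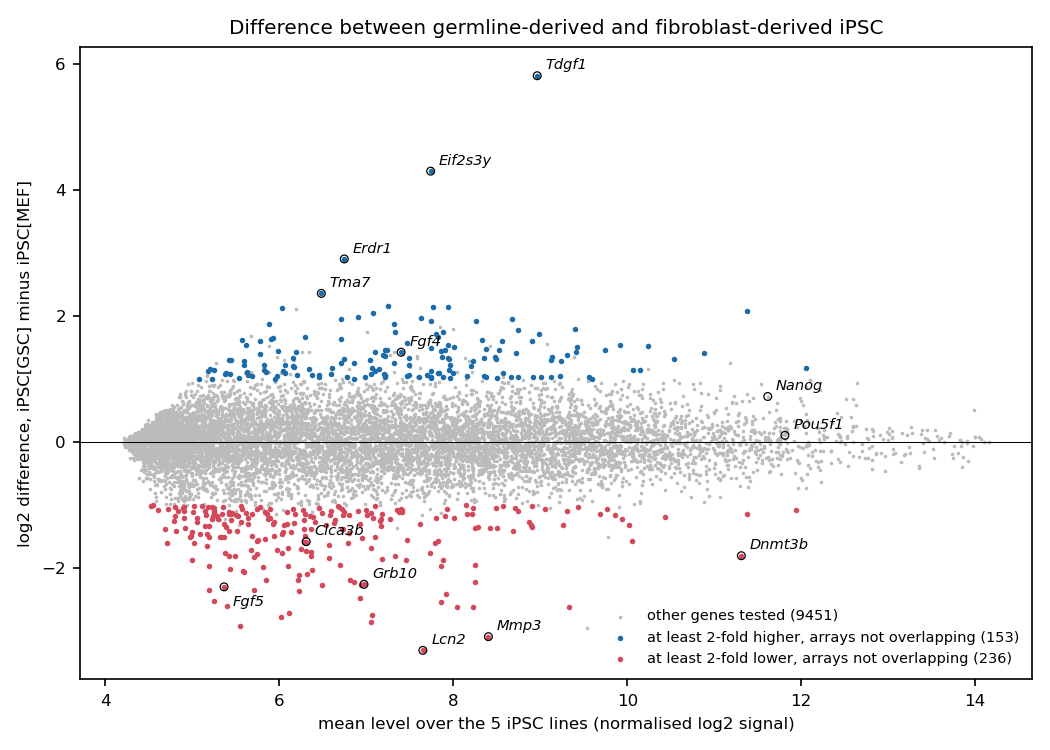
Each point is a gene, at its mean level over the 5 iPSC lines (x axis, normalised log2 signal) and its log2 difference, iPSC[GSC] minus iPSC[MEF] (y axis). Blue points are the 153 genes at least 2-fold higher without overlap of arrays and red points the 236 lower ones. Tdgf1 at 5.81 and Eif2s3y at 4.30 stand farthest above 0, and Lcn2 at −3.30 farthest below among the separated genes.

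The separated genes placed the other lines as follows. OG2 ESC lay on the iPSC[GSC] side of the midpoint at 293 of the 389 genes, gPSC[GSCneonatal]#1 at 368, gPSC[GSCadult]#1 at 255, gPSC[GSCadult]#2 at 61 and gPSC[GSCneonatal]#2 at 8. iPSC[GSCadult]#1, although one of the clones that chose the genes, lay on that side at 184, while each of the other 3 clones did so at 369 to 386. The midpoint is set by the same arrays, so these counts describe positions only.

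Grb10 was lower in every germline-derived clone. The 8 iPSC[GSC] arrays had a lowest level of 6.01, a median of 6.55 and a highest of 6.97, against 8.76 and 8.79 on the iPSC[MEF] arrays. No iPSC[GSC] array came near the iPSC[MEF] pair. The difference was −2.25 ± 0.35 (log2, SE), with a limma adjusted p = 0.695 on line means and 0.0155 on 26 arrays with the line block. Over all lines, Grb10 ran from MEF (11.60) through OG2 ESC (9.01), iPSC[MEF] (8.78) and gPSC[GSCadult]#2 (8.63) to gPSC[GSCneonatal]#2 (7.55) and gPSC[GSCadult]#1 (7.27). Below these came neonatal GSC (7.02), iPSC[GSCadult]#1 (6.94), iPSC[GSCneonatal]#2 (6.74), gPSC[GSCneonatal]#1 (6.71), adult GSC (6.39), iPSC[GSCadult]#2 (6.31) and iPSC[GSCneonatal]#1 (6.10). The 4 iPSC[GSC] clones thus lay beside or below the GSC lines, and iPSC[MEF] between OG2 ESC and gPSC[GSCadult]#2, with MEF above all other lines.

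**Figure D3:**
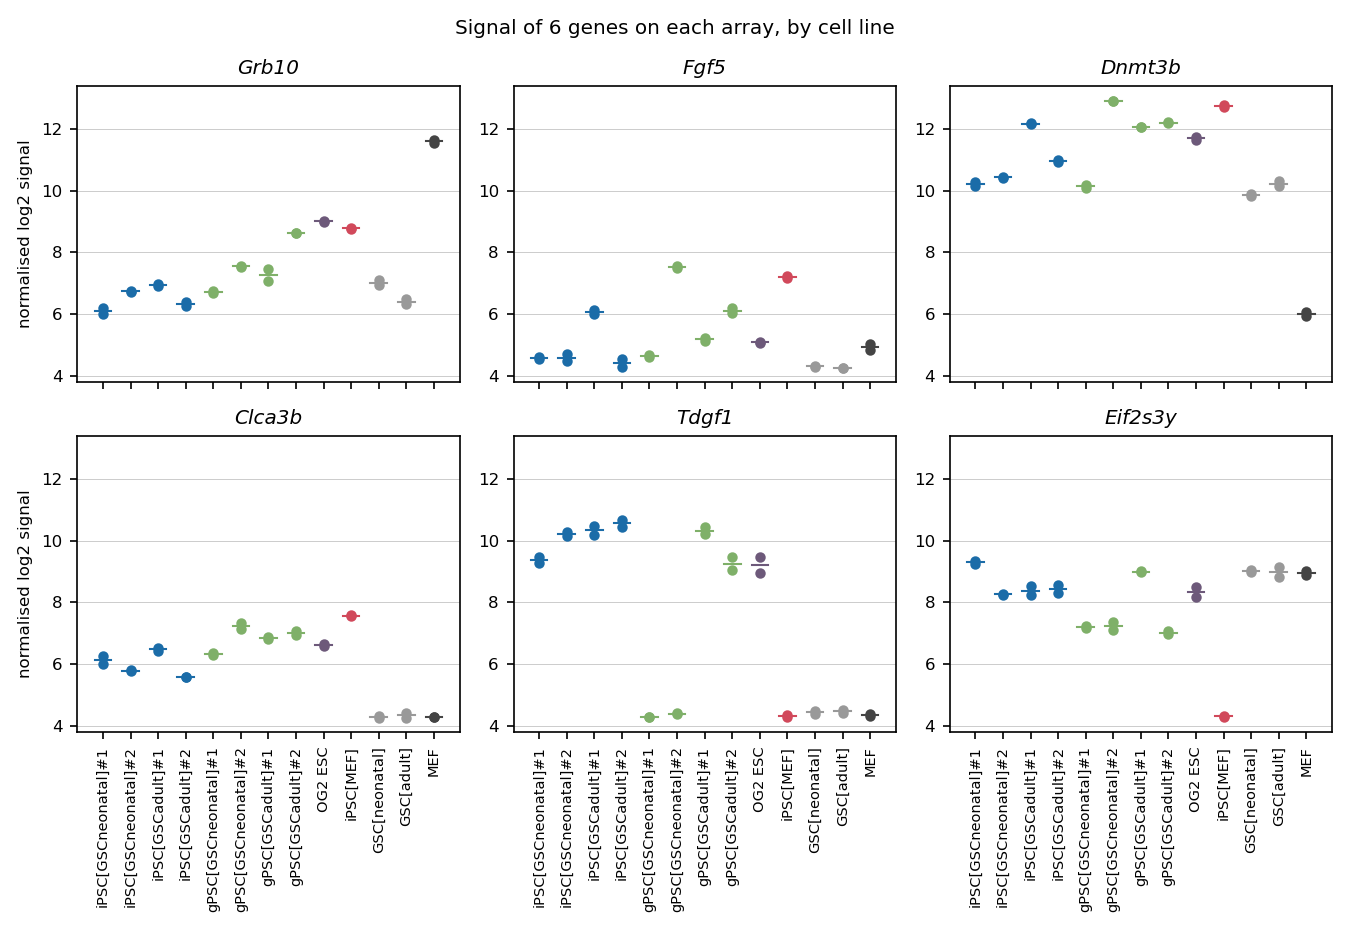
Normalised log2 signal (y axis) of 6 genes on each of the 26 arrays, grouped by line (x axis). Points are arrays, horizontal bars line means, blue iPSC[GSC], red iPSC[MEF], green gPSC, purple ESC, light grey GSC and dark grey MEF. Grb10, Fgf5, Dnmt3b and Clca3b are lower on all 8 iPSC[GSC] arrays than on both iPSC[MEF] arrays, while Tdgf1 and Eif2s3y are at background in iPSC[MEF].

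Of 17 maternally expressed imprinted genes measured, 3 were separated and lower (17.6%, against 2.4% of all genes) and 0 higher. Of all 17, 11 lay above 0, and the list median was 0.12. One of the 3 was Grb10, given as a marker of the comparison, so this share is a description only. The others were Phlda2, a placental growth restrictor, and Dcn, which encodes the matrix proteoglycan decorin and is also a fibroblast marker. Phlda2 ranged from 7.46 to 8.80 on the iPSC[GSC] arrays with a median of 8.36, and was 9.59 and 9.57 in iPSC[MEF]. Its difference was −1.36 ± 0.49 (limma adjusted p = 0.695), and OG2 ESC (9.63) lay with iPSC[MEF]. Dcn was 5.44 to 8.72 on the iPSC[GSC] arrays (median 7.65) and 9.87 and 9.91 in iPSC[MEF], with 7.30 in MEF. Cdkn1c spanned 5.81 to 9.43 across the iPSC[GSC] arrays, around the iPSC[MEF] values of 7.89 and 7.75. Igf2r, the receptor that clears insulin-like growth factor 2, differed by 0.12 ± 0.21. None of 17 paternally expressed imprinted genes was separated, and their median was 0.09. Without iPSC[GSCadult]#1, 1 was lower (5.88%, against 3.98% of all genes). Among the paternally expressed genes, Igf2, the fetal growth factor, differed by −0.08, Snrpn by 0.03, Ndn by −0.62 ± 0.31 and Peg3 by 0.47 ± 0.21, and none passed.

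Of the 4 core pluripotency factors, Pou5f1 overlapped between the groups and Nanog, Sox2 and Klf4 lay higher on all 8 iPSC[GSC] arrays by less than 2-fold. Pou5f1 (Oct4) was 11.54 to 12.10 on the iPSC[GSC] arrays and 11.64 and 11.81 on the iPSC[MEF] arrays, a difference of 0.11 ± 0.22. Sox2 differed by 0.57 ± 0.33, Klf4 by 0.89 ± 0.46 and Nanog by 0.72 ± 0.29, with limma adjusted p = 0.863 for Pou5f1 and 0.695 for the other 3. Nanog was 11.34 to 12.12 on the iPSC[GSC] arrays and 11.02 and 11.05 in iPSC[MEF], Sox2 8.33 to 9.13 against 8.28 and 8.13, and Klf4 9.05 to 10.40 against 8.89 and 8.95. None of the 4 passed. Of 34 naive pluripotency genes, 4 were separated and higher (11.8%, against 1.55% of all genes) and 1 lower (2.94%, against 2.4%), with a median of 0.31 (0.09 to 0.48 in single clones). Without iPSC[GSCadult]#1 there were 6 and 2 (17.6% and 5.88%, against 3.35% and 3.98% of all genes). Without iPSC[GSCneonatal]#1 there were 5 and 0 (14.7% and 0%, against 1.12% and 1.8%). Higher were Tdgf1, though its second probe differed by −0.08, the FGF ligand Fgf4 (7.08 to 8.20 against 6.25 and 6.27), Zfp296 and Zfp42, also known as Rex1 (8.13 to 9.19 against 7.74 and 7.91). The lower one was Lin28a, an RNA-binding repressor of let-7 maturation, at −1.34.

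Primed epiblast genes were lower in iPSC[GSC], and theirs was the largest share of separated members among the 22 lists with more than 1 measured gene. The lists were chosen with earlier results of these data known. This one holds Fgf5 and Dnmt3b, given as markers of the comparison, so its rank is a description only. Of 26 measured, 10 were separated and lower (38.5%, against 2.4%) and 0 higher (0%, against 1.55%), and the median was −0.62, with single clones between −1.28 and −0.38. No member passed the test. Fgf5 was 4.27 to 6.12 on the iPSC[GSC] arrays (median 4.57) and 7.17 and 7.23 in iPSC[MEF], and was detected on 2 of the 8. By clone it was 4.57, 4.59 and 4.40 in iPSC[GSCneonatal]#1, iPSC[GSCneonatal]#2 and iPSC[GSCadult]#2, and 6.06 in iPSC[GSCadult]#1. With the other 6 arrays not above background, the size of the difference was not fixed by these data. It was −2.29 as normalised here (limma adjusted p = 0.695), −1.04 without background correction and −3.64 in the deposited matrix. Dnmt3b was 10.16 to 12.21 (median 10.70) on the iPSC[GSC] arrays against 12.79 and 12.71. Its iPSC[GSC] clones read 10.22, 10.43, 12.18 and 10.97, the third being iPSC[GSCadult]#1, and a second probe gave −1.72 beside −1.80.

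In the next 4 members of the primed group iPSC[GSCadult]#1 was also the highest clone. Fgf8, an FGF ligand of the gastrulating embryo, was 4.27 to 6.02 on the iPSC[GSC] arrays and 7.48 and 7.47 in iPSC[MEF]. It was detected on 4 of the 8, and its difference ran from −4.02 in the deposited matrix to −1.25 without background correction. Wnt8a, a Wnt ligand of the posterior epiblast, was 4.24 to 6.05 against 7.12 and 7.02 and was detected on 2 of the 8. Pou3f1 (Oct6) was 6.73 to 8.60 against 9.16 and 9.12. Lefty1, an inhibitor of Nodal, was 5.01 to 10.44 against 11.46 and 11.38, with iPSC[GSCneonatal]#1 at 5.15 and the other clones from 9.72 to 10.42. The remaining separated members were Sfrp2, a secreted Wnt modulator (−1.67), the carbonic anhydrase Car14 (−1.49), Sall2 (−1.29) and the kinase Pim2 (−1.16). At the midpoint, iPSC[GSCadult]#1 lay on the iPSC[GSC] side for 2 of the 10 genes, each other clone for 10, OG2 ESC for 8, gPSC[GSCneonatal]#1 for 10 and gPSC[GSCneonatal]#2 for 0. The count of lower genes stayed at 10 to 11 when any 1 clone or the first iPSC[MEF] array was left out.

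FGF and MAPK signalling genes overlap these lists. Of 26 measured, 1 was separated and higher (3.85%, against 1.55%) and 4 lower (15.4%, against 2.4%), and the median was −0.27. The higher one was Fgf4, and the lower ones Fgf5, Fgf8, Fgf17 and Grb10, which binds receptor tyrosine kinases. Fgf5 and Grb10 were given as markers of the comparison, so the lower share is a description only. Of 18 genes of DNA methylation and demethylation, the given marker Dnmt3b was separated and lower (5.56%, against 2.4%). Gadd45b, a stress-response gene linked to demethylation, was separated and higher at 1.10 ± 0.57 (5.56%, against 1.55%). It was not separated when either neonatal clone was left out. Uhrf1, which guides maintenance methylation, differed by −0.34 and Tdg by −0.43.

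**Figure D4:**
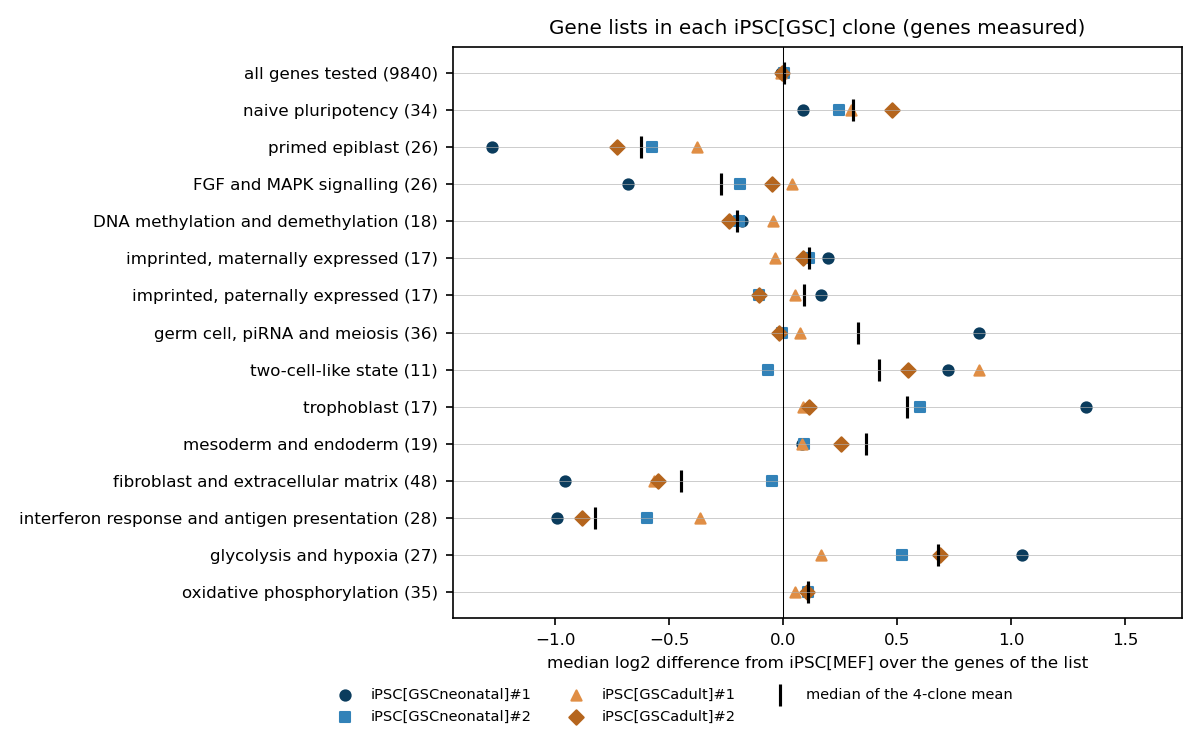
Median log2 difference from iPSC[MEF] (x axis) over the measured genes of each list (y axis, number in brackets). Coloured symbols are single iPSC[GSC] clones and the black bar the median of the 4-clone mean. Primed epiblast and interferon genes lie below 0 in all 4 clones and glycolysis genes above 0 in all 4, with iPSC[GSCadult]#1 nearest to 0 in these 3 lists.

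Genes of the source cells were read in the iPSC made from them. The 200 genes with the largest excess in GSC over MEF had a median of 0.17 in iPSC[GSC] minus iPSC[MEF] and 126 lay above 0, whereas over all genes the median was 0.004 and 4974 of 9840 lay above 0. By clone the median was 0.29 in iPSC[GSCneonatal]#1 and 0.04 to 0.09 in the other 3. The 200 genes with the largest excess in MEF over GSC had a median of −0.33, with 61 above 0 and clone medians from −0.45 to −0.13. Of the GSC genes 21 were separated and higher (10.5%) and 13 lower (6.5%), and of the MEF genes 4 were higher (2%) and 31 lower (15.5%), beside 1.55% higher and 2.4% lower over all genes. The choice of these genes and the reading shared no array.

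**Figure D5:**
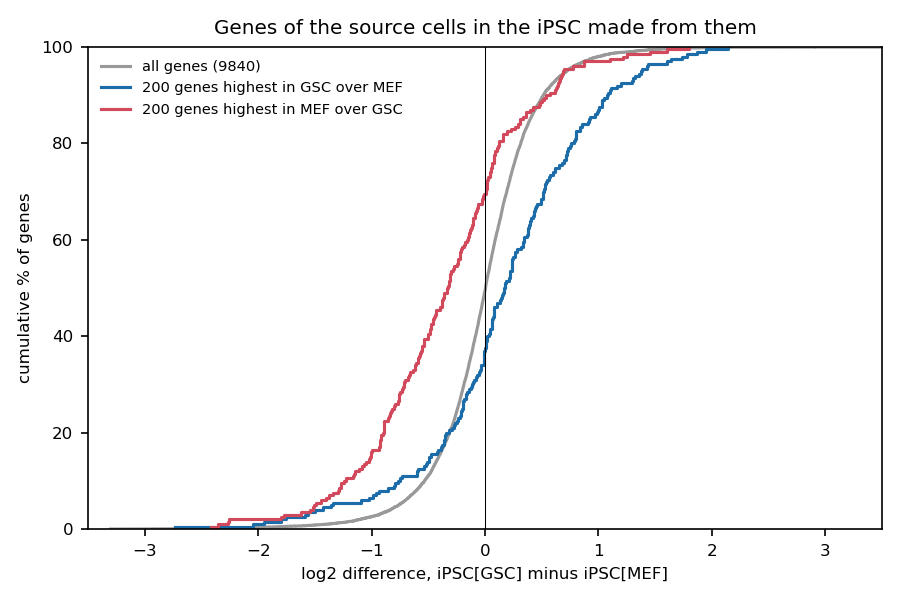
Cumulative share of genes (y axis, %) by log2 difference, iPSC[GSC] minus iPSC[MEF] (x axis), for all 9840 genes (grey), the 200 genes highest in GSC over MEF (blue) and the 200 highest in MEF over GSC (red). The red curve crosses 0 with 30.5% of genes above it and the blue curve with 63%.

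Among germ cell genes the excess rested largely on a single clone. Of 36 germ cell, piRNA and meiosis genes, 4 were separated and higher (11.1%, against 1.55%) and 0 lower, and the median of the 4-clone mean was 0.33. Without iPSC[GSCneonatal]#1 there were 1 higher and 1 lower (2.78% each, against 1.12% and 1.8% of all genes). The clone medians were 0.86 in iPSC[GSCneonatal]#1 and −0.02 to 0.07 in the other 3. Stag3, a cohesin subunit of meiosis, was 7.34 to 9.28 on the iPSC[GSC] arrays and 6.21 and 5.89 in iPSC[MEF], with 10.36 in neonatal GSC. Its difference was 2.14 ± 0.73 (limma adjusted p = 0.695), and OG2 ESC read 8.68. Piwil2, a PIWI protein of the piRNA pathway, was 6.44 to 8.50 against 6.42 and 6.25, so the nearest arrays almost touched. Dazl, a germ cell RNA-binding protein, was 10.80 in iPSC[GSCneonatal]#1, 6.07 to 6.71 in the other clones and 6.16 in iPSC[MEF]. Of 29 spermatogonial stem cell genes the median was −0.01, with 2 separated higher (6.9%, against 1.55%), namely Cd9 and Stra8, and 3 lower (10.3%, against 2.4%), namely Pou3f1, Thy1 and Lin28a. Without iPSC[GSCneonatal]#1 there was 1 lower (3.45%, against 1.8%).

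Fibroblast and extracellular matrix genes were lower in iPSC[GSC]. Of 48 measured, 12 were separated and lower (25%, against 2.4%) and 2 higher (4.17%, against 1.55%), and the median was −0.45. The 2 higher were the basement-membrane collagens Col4a1 and Col4a2. Clone medians ran from −0.96 in iPSC[GSCneonatal]#1 to −0.05 in iPSC[GSCneonatal]#2. Without iPSC[GSCneonatal]#1 there were 6 lower (12.5%, against 1.8% of all genes), and without iPSC[GSCadult]#1 4 higher (8.33%, against 3.35%). Lum, which encodes the proteoglycan lumican, was 4.79 to 7.50 on the iPSC[GSC] arrays (median 6.82) and 8.69 and 8.81 in iPSC[MEF]. Timp2, a metalloproteinase inhibitor, was 5.97 to 8.51 against 9.40 and 9.46. Dcn and Lum were lower in MEF itself (7.30 and 5.21) than in iPSC[MEF], whereas Col1a1 was 12.23 in MEF and 7.06 in iPSC[MEF]. In gPSC[GSCadult]#2 the same list stood 1.65 above iPSC[MEF]. The mean level of fibroblast markers given above was higher in iPSC[MEF] than in any iPSC[GSC] clone, and its part in these differences was not tested. In bulk RNA, fewer cells of a type and less RNA per cell cannot be told apart.

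The lowest differences among the separated genes were those of Lcn2, Mmp3 and Cxcl5. These and the other inflammatory genes below were picked with their values in view. Lcn2, an iron-sequestering acute-phase protein, was 5.18 to 9.34 on the iPSC[GSC] arrays (median 6.70) and 10.24 and 10.34 in iPSC[MEF]. It was higher still in gPSC[GSCneonatal]#2 (10.89) and gPSC[GSCadult]#2 (13.14), so the high level was not particular to iPSC[MEF]. In gPSC[GSCneonatal]#1 it read 7.22, in gPSC[GSCadult]#1 8.35 and in MEF only 4.27. Mmp3, a matrix metalloproteinase, was 4.99 to 9.71 against 10.84 and 10.90, and its 3 probes gave −3.02 to −3.13. In the same order the gPSC clones read 11.10, 12.58, 7.38 and 9.30, with 6.83 in MEF and 9.99 in neonatal GSC. The chemokine Ccl2 was 4.21 to 5.90 against 7.25 and 7.27, and Cxcl5 was 4.28 to 6.77 against 7.66 and 8.11, each detected on 2 of the 8 iPSC[GSC] arrays. Il33, a cytokine released from damaged cells, was 4.99 to 6.70 against 8.28 and 8.29, a difference of −2.71 ± 0.65. All of these arrays lay apart, and none of the genes passed (limma adjusted p = 0.695).

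Interferon-response and antigen-presentation genes were lower too. Of 28 measured, 6 were separated and lower (21.4%, against 2.4%) and 0 higher, the median was −0.82, and 3 lay above 0. iPSC[GSCadult]#1 lay nearest to iPSC[MEF] with a median of −0.36, and on the iPSC[MEF] side of the midpoint at all 6 separated genes. Lines outside iPSC[GSC] were lower as well, with medians of −0.54 in OG2 ESC and −1.05 in MEF, both on the iPSC[GSC] side at all 6. The gPSC clones ran from −1.06 in gPSC[GSCneonatal]#1 to 0.50 in gPSC[GSCadult]#2. Oasl2, an oligoadenylate synthetase-like antiviral gene, was 4.88 to 8.44 against 9.18 and 9.32, a difference of −2.73 ± 1.22, while its second probe gave −0.94. Ifit3 was 4.39 to 6.77 against 7.69 and 7.48, and Isg15, a ubiquitin-like modifier, 4.66 to 7.60 against 7.86 and 8.06. Without iPSC[GSCadult]#1 there were 11 separated genes, all lower (39.3%, against 3.98% of all genes in that setting).

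Glycolysis and hypoxia genes lay on the other side. Of 27 measured, 26 were above 0, 5 were separated and higher (18.5%, against 1.55%) and 0 lower, and the median was 0.68. Without iPSC[GSCadult]#1 there were 9 higher (33.3%, against 3.35% of all genes), and without iPSC[GSCneonatal]#1 there were 3 (11.1%, against 1.12%). Clone medians were 1.05, 0.52, 0.17 and 0.69 in the order iPSC[GSCneonatal]#1, iPSC[GSCneonatal]#2, iPSC[GSCadult]#1 and iPSC[GSCadult]#2, and OG2 ESC stood at 0.57. Aldoc, an aldolase of glycolysis, was 7.61 to 9.65 on the iPSC[GSC] arrays (median 9.50) and 7.10 and 7.14 in iPSC[MEF]. Vegfa, a hypoxia-induced angiogenic factor, was 8.28 to 11.11 against 8.0 and 7.92. Pfkl, the liver-type phosphofructokinase, differed by 0.83 ± 0.34, and the glucose transporter Slc2a3 by 0.68 ± 0.21. Of 35 oxidative phosphorylation genes 0 were separated, and the median was 0.11.

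Lineage genes showed small groups of separated members. The endoderm regulator Gata6 was 6.56 to 8.46 on the iPSC[GSC] arrays and 5.35 and 5.28 in iPSC[MEF], and the basement-membrane genes Col4a1 and Lama1 were 8.25 to 9.59 against 7.43 and 7.12 and 6.88 to 9.48 against 6.74 and 6.65. Gata6, Col4a1 and Lama1 were the 3 higher of 19 mesoderm and endoderm genes (15.8%, against 1.55%), and Pdgfra the 1 lower (5.26%, against 2.4%). The list median was 0.36, above the 0.08 to 0.25 of single clones. Among 17 trophoblast genes 16 lay above 0, and 1 was separated and higher (5.88%, against 1.55%). This was Krt19, at 4.37 in iPSC[GSCadult]#1 and 4.28 in iPSC[MEF]. The list median was 0.54, with 1.33 in iPSC[GSCneonatal]#1 and 0.09 in iPSC[GSCadult]#1. Without iPSC[GSCneonatal]#1 0 were separated, and without iPSC[GSCadult]#1 5 were (29.4%, against 3.35% of all genes). The simple-epithelium keratin Krt18 was 6.38 to 10.95 against 6.56 on both iPSC[MEF] arrays, so the groups overlapped. The defining trophoblast markers (3 of 4 measured) averaged 7.20 in iPSC[GSCneonatal]#1, 4.85 to 5.49 in the other clones and 4.75 in iPSC[MEF], and their part in these values was not tested. Of 11 genes of the 2-cell-like state, in which rare cells express early-embryo transcripts, 3 were separated and higher, which is 27.3% against 1.55%. The median was 0.42 (−0.07 to 0.86 by clone). Tmem92 was 6.37 to 7.89 against 5.97 and 5.95, Tcstv1 7.03 to 8.77 against 6.96 and 6.78, and Tcstv3 7.54 to 9.36 against 7.38 and 7.42, with iPSC[GSCneonatal]#2 lowest of the clones in each. Zscan4c, the best known gene of this state, overlapped and differed by 0.94.

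The remaining lists held at most 3 separated members each, where 1.55% of all genes were higher and 2.4% lower. Among 16 neural and ectoderm genes 1 was higher (6.25%), the homeobox gene Otx1 (1.11). In the same list 2 were lower (12.5%), Fgf8 and Nrcam, and the median was −0.10. Wt1, at −1.09, was the 1 separated gene of 12 testis somatic cell genes (8.33% lower, median −0.02). Eif2s3y was that of 10 sex-linked genes (10% higher, median 0.10). Of 21 insulin and growth-factor receptor genes 2 were lower (9.52%), the given marker Grb10 and the binding protein Igfbp5 (−1.55), with a median of −0.08. None of 21 p53 target genes (median 0.19), 22 immediate-early and heat shock genes (median 0.14) or 4 reprogramming factors (median 0.34) was separated. Of 7 chloride channel regulators 1 was measured, the given marker Clca3b. Leaving out any 1 clone moved the counts in these 8 lists by at most 2.

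Tdgf1 and Eif2s3y, the genes farthest apart upwards, belonged to different lists. Tdgf1 encodes Cripto, a Nodal co-receptor, and its probe was 9.30 to 10.69 on the iPSC[GSC] arrays and 4.36 and 4.27, at background, in iPSC[MEF]. It was at least 34.4-fold higher (limma adjusted p = 0.151 on line means, 7.19e-09 on 26 arrays). The probe was at background in both neonatal gPSC clones as well (4.28 and 4.39), and a second detected Tdgf1 probe differed by −0.08 between iPSC[GSC] and iPSC[MEF]. Eif2s3y, a translation initiation factor gene of the Y chromosome, was 8.23 to 9.36 against 4.29 and 4.32. It was at least 11.9-fold higher (limma adjusted p = 0.257 on line means, 1.51e-05 on 26 arrays), and MEF read 8.96. Of the other Y-linked genes, Uty averaged 5.27 in iPSC[GSC] and 5.12 in iPSC[MEF] and was detected on all 10 arrays. It was dim, at 5.14 and 5.10 on the iPSC[MEF] arrays, where the lowest detected levels of any probe were 5.12 and 4.93. Kdm5d (4.61 and 4.33) was detected on 1 array and Zfy1 (5.06 and 4.32) on 4, all of them iPSC[GSC]. The X-linked counterpart of Eif2s3y, Eif2s3x, differed by −0.29, and Xist was detected on no iPSC array. Erdr1 was 6.55 to 8.50 against 4.38 and 4.47, at least 4.94-fold higher.

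The other genes called in the fit to 26 arrays follow, and none of them was called on line means. Tma7, a translation machinery-associated gene, was 6.76 to 7.31 against 4.36 and 4.84, at least 3.82-fold higher (limma adjusted p = 0.151 on line means, 0.0191 on 26 arrays). Fgfr1op2 was 7.50 to 7.81 against 5.23 and 5.82, with a second probe at 0.82. Cep19, a centrosomal protein gene, was 7.90 to 8.25 against 7.08 and 7.05, and Apoa2, an apolipoprotein, 4.95 to 7.44 against 4.28 and 4.36. Epm2aip1 differed by 1.33, but its other probes gave 0.54 and −0.69. Gprc5a, a retinoic acid-induced receptor, was 6.45 to 6.76 against 4.95 and 4.96. The inositol hexakisphosphate kinase Ip6k2 was not detected on any iPSC[GSC] array and was at least 2.09-fold lower there, with iPSC[MEF] at 6.0 and 5.87. Clca3b was 5.57 to 6.51 against 7.59 and 7.55, a difference of −1.58 ± 0.36 (limma adjusted p = 0.0385 on 26 arrays). Clca3b read 4.28 to 4.34 in GSC and MEF and 6.63 in OG2 ESC, so all pluripotent lines, from 5.58 to 7.57, stood above the source cells.

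Splitting by origin gave no call either. Limma called 0 genes (0%) in the neonatal clones against iPSC[MEF] (1558 at an unadjusted p under 0.05), 0 (0%) in the adult clones (395) and 0 (0%) between adult and neonatal clones (940). The last of these tests whether the contrast with iPSC[MEF] differs between the origins, since iPSC[MEF] cancels. Its smallest p-values were those of Fgf15, Gm428, Spint5, Ptgis and Ddx27, all higher in the adult clones, and Spint5, Ptgis and Ddx27 are on chromosome 2. Fgf15, an FGF ligand, read 4.80 and 5.02 in the neonatal clones, 6.75 and 6.99 in the adult clones and 6.40 in iPSC[MEF]. Spint5 read 5.38 and 4.48 against 7.84 and 8.02, with 5.13 in iPSC[MEF]. Ddx27, an RNA helicase, was 8.88 and 9.18 against 10.55 and 10.51, on either side of iPSC[MEF] (9.88), so its overall difference of −0.09 ± 0.74 hides opposite signs. All 5 had a limma adjusted p = 0.508 for the difference between origins. Grb10 differed between origins by 0.21 ± 0.33, and Fgf5 by 0.65 ± 0.56.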

How the data were processed

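Illumina MouseRef-8 bead arrays measured total RNA from 13 mouse lines, with 2 arrays for each. The deposited probe table holds an intensity and a detection p-value for each probe and array, per the file headers, with no normalisation stated there. The deposited matrix holds values on a log2 scale, from 0.198 to 14.2, used here as an alternative only. BeadStudio 3.2, RMA and lumi are named in the submitters' processing notes, without roles. The genome build is not given in the sources used here, and promoter coordinates are those of GRCm38.p6.

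From the intensities, background correction, quantile normalisation and log2 transformation were done with neqc in limma 3.58.1 (R 4.3.3, offset 16). Of 25697 probes, 14517 passed a filter of detection p below 0.01 on 2 or more arrays, and the brightest stood for each of 9840 genes. Of all probes 23978 had 1 symbol and 1719 none. The main test was limma on the means of the 5 iPSC lines (adjusted p under 0.05). Random line blocks used statmod 1.5.0. The procedure was tested on simulated data.

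The members and the 23 gene lists (445 of 657 genes measured) were chosen with earlier results of these data known. Genes named were the marker genes, the core factors, up to 4 per list by smallest p, and 5 per origin contrast by smallest p. A further 48, among them Lcn2, Mmp3 and the chemokines, were chosen after their values were seen, as were single list members and the genes nearest between lines. Alternatives covered normalisation, probe filter and choice, lines giving the spread, blocks, and clones or arrays left out.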

Additional observations from a re-analysis of the deposited data

Results flagged for a closer look

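In 22 of 162 sets of 4 iPSC[GSC] clone values, 1 clone stood far from the other 3 (by the gap to the nearest over the whole range). Chance gives about 5% of independent sets, but these share the same 4 clones, and 48 of the genes were picked after their values were seen, so that share is no fair reference here. iPSC[GSCadult]#1 was that clone in 12, iPSC[GSCneonatal]#1 in 6, iPSC[GSCneonatal]#2 in 3 and iPSC[GSCadult]#2 in 1. Values are log2 levels unless said otherwise.

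In iPSC[GSCadult]#1, Fgf5 read 6.06 (4.40 to 4.59 in the others), Wnt8a 6.02 (4.25 to 4.33) and Cxcl5 6.55 (4.33 to 4.61). Igfbp5 read 6.22 (5.13 to 5.23), Bcl11a 4.77 (4.23 to 4.31) and Dpt 4.60 (4.25 to 4.29). The clone was low for Aldoc at 7.63 (9.48 to 9.58), Zfp42 at 8.18 (9.02 to 9.15) and Igfbp2 at 10.2 (10.9 to 11.1). It was also low for Tfap2c at 10.8 (11.2 in the others) and Tex14 at 7.69 (8.02 to 8.06). Its median difference from iPSC[MEF] over oxidative phosphorylation genes was 0.053 (0.106 to 0.108).

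In iPSC[GSCneonatal]#1, Dazl read 10.8 (6.07 to 6.71), Gata2 6.64 (5.56 to 5.62), Zfy1 6.16 (4.59 to 4.80) and Eif2s3y 9.31 (8.26 to 8.44), while Lefty1 read 5.15 (9.72 to 10.42). Its median over germ cell, piRNA and meiosis genes was 0.86, with the others from −0.02 to 0.07. iPSC[GSCneonatal]#2 was low for Rhox5 at 10.7 (12.004 to 12.138), Tcstv1 at 7.21 (8.40 to 8.63) and Inpp5f at 6.44 (6.80 to 6.85). The median of mesoderm and endoderm genes was 0.25 in iPSC[GSCadult]#2 and 0.08 to 0.09 in the others.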

How the results depend on the processing

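The single iPSC[MEF] line and 4 clones limited the test, and the signal over background limited dim genes. Genes called higher numbered 3 with the deposited matrix, 2 with 13 lines giving the spread, 9 on 26 arrays and 6 on the 10 iPSC arrays with the line as a random block, against 0 in the main test. Genes called lower numbered 3 and 5 in the last pair of fits. With replicate numbers as a block beside the line block, 4 were higher and 2 lower. Same-numbered arrays did not deviate together in the 10 pairs of lines checked (r from −0.118 to 0.0964), and the numbers were not taken as a pairing. These 10 are not all pairs of the 13 lines, so the check cannot decide whether same-numbered arrays share an effect in the remaining pairs. In the iPSC[MEF], OG2 ESC, gPSC and GSC lines, first arrays had background medians of 87.3 to 89.4 and second arrays 80.6 to 83.8. All 8 iPSC[GSC] arrays lay at 79.4 to 83.2. Whether arrays were run in separate sets is not given, and the part of such sets in the contrast was not tested. Separated genes numbered 48 higher and 64 lower without background correction, and 347 and 501 with the deposited matrix. Leaving out a clone or a replicate number gave 0 to 2 calls higher (2 without iPSC[GSCneonatal]#1), and 110 to 330 separated genes higher and 177 to 392 lower, the highest without iPSC[GSCadult]#1. Fewer lines enter the fits without a clone, and otherwise the cause was not tested. Ddx27 turned from −0.09 to 0.21 without iPSC[GSCneonatal]#1 and 0.11 without iPSC[GSCneonatal]#2, with −0.35 the lowest value when a clone was left out. Cdkn1c turned from −0.48 to 0.0084 without iPSC[GSCadult]#1, with −1.13 the lowest. Grb10, Fgf5, Clca3b and Dnmt3b stayed below 0 in all 19 settings, Fgf5 from −3.64 to −1.04. The origin contrasts gave 0 limma calls in all 7 settings run, beside 1558, 395 and 940 genes at an unadjusted p under 0.05. Without the first iPSC[MEF] array, an alternative chosen after seeing the data for its higher background, 0 genes were called and 173 and 240 were separated. A chip or batch term was not run, since the headers give none.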

Other observations

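Several genes with small p-values lay near each other, as seen after their values were known. The ends of both stretches below were set at separated genes, so their shares are high partly by that choice. On chromosome 9, the stretch from Nicn1 to Cmtm7 held 59 measured genes, of which 7 were separated (11.9%, 6 higher and 1 lower). In the same stretch 7 genes had an unadjusted limma p under 0.01, namely 1700102P08Rik, Ip6k2, Tma7, Map4, Tdgf1, Epm2aip1 and Cmtm7. Over the whole of chromosome 9, 10 of 578 genes had such a p, these 7 among them, and 4.15% were separated. Chromosome 11 had 10 of 863 genes with such a p, and each other chromosome 0 to 7. On chromosome 6, the stretch from Gprc5a to Fgfr1op2 held 34 measured genes, 6 of them separated (17.6%, 3 higher and 3 lower), beside 5.32% over that chromosome. Over all chromosomes 3.95% of genes were separated, with 5.56% of the 342 X-linked genes and 1 of 6 Y-linked genes. Across lines, Tma7 read 4.57 and 4.65 in the neonatal gPSC clones and 7.06 and 7.10 in the adult ones, and Tdgf1 4.28 and 4.39 against 9.25 and 10.33.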
